A study of Mus musculus with 6 samples.

Results

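The transcripts described here are 9 long noncoding RNAs of mouse bone marrow cells, picked by gene symbol from the 30803 rows of each deposited table. They fall into 3 RNAs known to stay in the nucleus (Malat1, Neat1 and Kcnq1ot1) and 6 host genes of small nucleolar RNAs, or snoRNAs (Gas5, Snhg1, Snhg3, Snhg6, Snhg8 and Snhg12). Cells labelled hematopoietic stem cells (HSCs), which renew the blood, were sorted from the marrow of wild-type (WT) mice at 5 months of age into a fraction high (MHCII-hi) and a fraction low (MHCII-lo) in MHC class II, the surface molecules that present peptides to helper T cells. No treatment is named, and the titles mark both fractions as Ctrl. Stranded poly(A) RNA-seq gave 3 libraries of each fraction, so n = 3 per group throughout. The sources used here give neither the sort markers nor the number of animals behind a library. The p-values set the difference between the fractions against the variation among libraries of a fraction, and that variation may be technical.

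Levels are taken to be FPKM (fragments counted per kilobase of a transcript, relative to library size), since the tables name no unit. The read depth behind them is unknown. A library's FPKM summed to 305934 to 306945 in MHCII-lo and to 333347 to 333530 in MHCII-hi, so a level is a share of a pool whose other members also differed. Of 12 long-term HSC markers, 5 averaged under 1 FPKM (Procr, Slamf1, Mecom, Hoxb5 and Fgd5), and Hoxb5 did not exceed 0.01 FPKM in any library. Kit, the stem cell factor receptor, lay between 10.72 and 11.09 FPKM in all 6 libraries. Summed markers of B cells rose from 40.7 to 45.6 FPKM in MHCII-lo to 528 to 538 FPKM in MHCII-hi, with 10 of 10 passing the test, and those of neutrophils and monocytes summed to 16480 to 16540 and to 21270 to 21550 FPKM, with 5 higher and 6 lower of 12. Of 10 erythroid markers 9 fell, and of 18 immediate early genes 17 rose and 1 fell. By the same test 27.2% of all tested genes were higher and 40.5% lower in MHCII-hi. The part of these differences in the values below was not tested. In bulk RNA, fewer cells of a type and less RNA per cell cannot be told apart.

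Malat1 gathers in nuclear speckles, bodies rich in splicing factors. Neat1 is the RNA on which paraspeckles assemble, and Kcnq1ot1 is an antisense RNA that silences imprinted neighbours on the paternal chromosome. Host genes are spliced and their snoRNAs are cut from the introns, after which C/D snoRNAs guide ribose methylation and H/ACA snoRNAs guide pseudouridylation, chiefly of ribosomal RNA. The spliced remainder of a host often begins with a C followed by a run of pyrimidines, the 5′ terminal oligopyrimidine (TOP) tract that ribosomal protein mRNAs also carry. Such transcripts can be loaded onto ribosomes and then destroyed by nonsense-mediated decay, and Gas5 (growth arrest specific 5) was named for its build-up when cells stop growing.

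The start regions of 5 hosts and of Malat1 are shown because the TOP tract is a feature that hosts share with ribosomal protein genes. RefSeq promoter sequences of GRCm38.p6 gave 80 bases around each annotated start, printed 5′ to 3′ on the gene's strand with the tract in capitals, for Gas5 at the downstream of its 2 starts (chr1:161035126-161035205, plus strand), Snhg8 (chr3:123508297-123508376, minus), Snhg12 (chr4:132308638-132308717, plus), Snhg3 (chr4:132353647-132353726, minus), Snhg1 (chr19:8723447-8723526, plus) and Malat1 (chr19:5802633-5802712, minus). Here a tract is a C within 10 bases of the start, on either side of it, followed by at least 4 bases that are C or T, read on the gene's strand only.
Gas5: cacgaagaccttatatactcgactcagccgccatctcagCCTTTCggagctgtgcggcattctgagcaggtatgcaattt
Snhg8: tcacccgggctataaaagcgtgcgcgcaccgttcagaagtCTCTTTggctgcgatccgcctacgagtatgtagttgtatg
Snhg12: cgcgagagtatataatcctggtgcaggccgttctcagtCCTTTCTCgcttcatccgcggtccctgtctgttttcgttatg
Snhg3: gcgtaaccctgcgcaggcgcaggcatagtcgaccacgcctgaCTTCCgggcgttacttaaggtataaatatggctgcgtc
Snhg1: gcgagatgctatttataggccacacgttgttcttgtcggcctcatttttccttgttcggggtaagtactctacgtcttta
Malat1: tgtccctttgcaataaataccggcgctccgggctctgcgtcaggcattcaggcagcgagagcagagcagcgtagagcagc

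The tract was found at 4 of the 6 annotated starts of the 5 hosts with an entry. The upstream start of Gas5 and the start of Snhg1 did not hold these letters, and neither did the starts of Malat1 and Kcnq1ot1. The tract was present in 30.7% of all 32851 RefSeq promoters and in 41 of the 74 of cytosolic ribosomal protein genes (55.4%). A match describes the letters of the window and is not a measured start site.

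The 3′ regions of Malat1 and Neat1 are shown because libraries were made from poly(A) RNA. Malat1 and the long form of Neat1 are known to end without a poly(A) tail, where RNase P cuts behind a tract of A encoded in the genome and T-rich stretches upstream fold against the A tract as a triple helix. The GENCODE M21 transcripts of GRCm38 gave a region of Malat1 (chr19:5795978-5796109, minus strand) and the annotated end of Neat1 (chr19:5824708-5824817, minus strand). Capitals mark runs of at least 5 T or 8 A in Malat1 and of at least 4 T or 4 A in Neat1.
Malat1: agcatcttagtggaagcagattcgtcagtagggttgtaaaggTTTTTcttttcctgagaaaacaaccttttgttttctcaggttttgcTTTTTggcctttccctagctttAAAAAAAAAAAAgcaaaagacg
Neat1: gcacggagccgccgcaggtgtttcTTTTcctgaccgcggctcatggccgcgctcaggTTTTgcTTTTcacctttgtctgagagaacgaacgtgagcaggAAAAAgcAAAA
The A run of Malat1 in this window is 12 bases long. How far the capture of these RNAs on poly(A) depended on such runs was not tested.

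All 8 transcripts that could be tested differed between the fractions. Malat1 and Neat1 rose in MHCII-hi, and all 6 snoRNA hosts fell. The nuclear RNAs had only these 2 tested members, and Neat1 lost its call in 7 of 20 alternative settings, so a rise that held in every setting was seen for Malat1 alone. Malat1 was 1.92-fold higher, while Snhg8 stood at 0.436 and Snhg6 at 0.502 times its MHCII-lo level. The groups did not overlap for any of the 8. The background was high: limma, a linear model test fitted to log2(FPKM + 1) over the 12295 genes that averaged 1 FPKM or more, called 67.8% of them at a Benjamini-Hochberg adjusted p under 0.05, with 27.2% higher and 40.5% lower, and 72.8% of tested genes had groups that did not overlap. Of those calls 40.2% were higher, a share that became 29.0% after rescaling the libraries to an equal sum (TPM) and 50.5% with median-of-ratios scaling. The median log2 change over the tested genes was -0.08, and the TPM scaling moved it by -0.12. Under limma's treat test, which asks whether a change exceeds 1.2-fold and called 30.3% of tested genes, 5 of the 8 passed (Malat1, Gas5, Snhg1, Snhg6 and Snhg8).

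**Figure D1:**
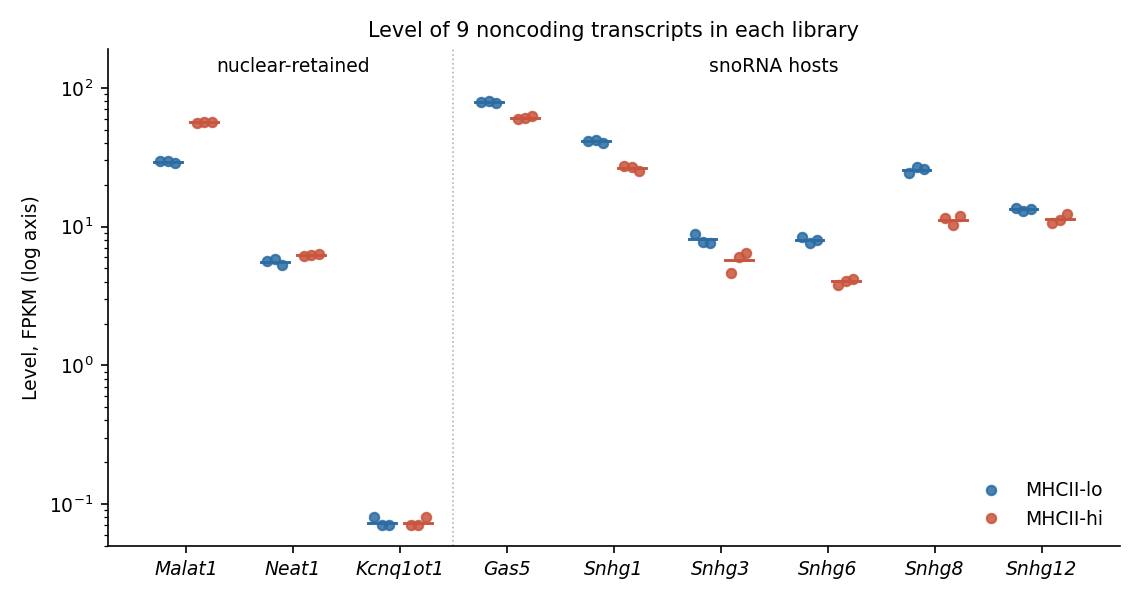
Level of each transcript in FPKM (log axis) in the 3 MHCII-lo (blue) and 3 MHCII-hi (red) libraries, with points for libraries and bars for the group mean. Malat1 lies between 28.88 and 29.71 in MHCII-lo and between 56.03 and 56.77 in MHCII-hi, every host lies lower in MHCII-hi, and Kcnq1ot1 stays at 0.07 to 0.08.

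Malat1 (chr19:5795690-5802672, minus strand, annotated as a lincRNA with forms of up to 6983 bases) measured 29.59, 29.71 and 28.88 FPKM in the MHCII-lo libraries and 56.03, 56.77 and 56.60 FPKM in the MHCII-hi libraries. The 3 libraries of a fraction lay close together and far from the other fraction. The log2 change was 0.92 ± 0.02 (SE, limma adjusted p = 1.86e-07). Its place by level among all rows moved from 1645 to 771. Malat1 kept its call under all 20 alternative settings, with changes between 0.81 and 1.02.

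Neat1 (chr19:5824708-5845478, minus strand, lincRNA, up to 20771 bases) lies on the same chromosome and strand as Malat1. It measured 5.63, 5.80 and 5.28 FPKM in MHCII-lo, against 6.18, 6.26 and 6.29 in MHCII-hi. The lowest MHCII-hi library stood above the highest MHCII-lo library by less than the range of the MHCII-lo libraries. The log2 change was 0.14 ± 0.04 (SE, limma adjusted p = 0.0222), and the call was lost in 7 of 20 alternatives, among them TPM scaling (0.04), a correction for transcript length and GC content (0.09), and the fits without MHCII-lo replicate 3 (0.11), without MHCII-hi replicate 2 (0.14) or without MHCII-hi replicate 3 (0.14). The ratio of Malat1 to Neat1 was 5.26, 5.12 and 5.47 in MHCII-lo and 9.07, 9.07 and 9.0 in MHCII-hi.

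Kcnq1ot1 (chr7:143203458-143296549, minus strand, annotated as antisense, a single transcript of 93092 bases) was not abundant in these libraries. It measured 0.08, 0.07 and 0.07 FPKM in MHCII-lo, against 0.07, 0.07 and 0.08 in MHCII-hi, which placed it at 18828 and 19602 among all rows. It was under the filter and was not tested in the main fit. The deposited values have steps of 0.01 FPKM, or 13.6% of its mean, so smaller differences could not be seen. Its imprinted domain had 13 genes with a row, and 5 could be tested, of which Osbpl5 and Cd81 (named after its value was seen) rose and Nap1l4 and Tspan32 fell. The shares over all tested genes were 27.2% higher and 40.5% lower, and so few genes give no result about the domain. Osbpl5, an oxysterol-binding protein, measured 1.38 ± 0.10 and 2.52 ± 0.25 FPKM (SD), and Nap1l4, a histone chaperone, 49.1 ± 0.85 and 36.5 ± 0.95 FPKM (SD). Cdkn1c, the cell cycle inhibitor p57 that this domain is known for in HSCs, measured 0.53, 0.29 and 0.35 FPKM in MHCII-lo, against 0.45, 0.45 and 0.43 in MHCII-hi, under the filter and with overlapping groups.

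Gas5 (chr1:161034422-161038539, plus strand, with 10 annotated snoRNA entries within its bounds) had the highest level of the 9 in both fractions. It measured 79.26, 80.19 and 77.68 FPKM in MHCII-lo, against 59.58, 60.51 and 62.40 in MHCII-hi. No MHCII-hi library came near the lowest MHCII-lo library. The log2 change was -0.37 ± 0.02 (SE, limma adjusted p = 1.72e-05).

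Snhg1 (chr19:8723475-8726443, plus strand, 8 snoRNA entries) was second in MHCII-lo, at 41.65, 42.04 and 40.27 FPKM. In MHCII-hi it measured 27.49, 26.98 and 25.34 FPKM, below Malat1. The log2 change was -0.62 ± 0.04 (SE, limma adjusted p = 1.021e-05). As a description, Gas5 stood at 1.91 ± 0.01 times Snhg1 in MHCII-lo and at 2.29 ± 0.15 times in MHCII-hi (SD). The exact permutation p of this ratio was 0.1, the smallest possible with 3 against 3 libraries, so nothing is drawn from it.

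Snhg8 (chr3:123507552-123508404, minus strand, host of Snora24) had the largest change of the hosts. It measured 24.29, 26.88 and 26.14 FPKM in MHCII-lo, against 11.44, 10.30 and 11.97 in MHCII-hi. Its place among all rows went from 1877 to 4250. The log2 change was -1.13 ± 0.06 (SE, limma adjusted p = 6.898e-06).

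Snhg6 (chr1:9941959-9944118, minus strand, host of Snord87) measured 8.42, 7.63 and 7.96 FPKM in MHCII-lo, against 3.79, 4.07 and 4.20 in MHCII-hi. It had the lowest level of the hosts in MHCII-hi, and the log2 change was -0.84 ± 0.05 (SE, limma adjusted p = 1.264e-05). Snhg6 and Snhg8 are the hosts with a single annotated snoRNA, and both are short loci of 2160 and 853 bases.

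Snhg3 (chr4:132348014-132353686, minus strand, host of Snora73a and Snora73b) was the least even host. It measured 8.89, 7.68 and 7.67 FPKM in MHCII-lo, against 4.66, 6.06 and 6.44 in MHCII-hi, a coefficient of variation of 16.4% in MHCII-hi. The log2 change was -0.44 ± 0.11 (SE, limma adjusted p = 0.0106). It did not pass the treat test (adjusted p = 0.204). Snhg3 overlaps Rcc1, a chromatin-bound exchange factor for Ran, on the same strand, and reads of the shared stretch could be assigned to either gene. Rcc1 itself fell from 19.5 ± 0.50 to 11.7 ± 0.32 FPKM (SD, log2 change -0.69, limma adjusted p = 4.355e-06).

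Snhg12 (chr4:132308623-132311024, plus strand, 5 snoRNA entries) lies near Snhg3 on the same chromosome and had the smallest change of the hosts. It measured 13.53, 13 and 13.48 FPKM in MHCII-lo, against 10.62, 11.22 and 12.35 in MHCII-hi. The groups did not overlap, and the log2 change was -0.21 ± 0.05 (SE, limma adjusted p = 0.0115). The call was lost with median-of-ratios scaling (-0.12), with libraries rescaled without immunoglobulin and mitochondrial genes (-0.14), with the length and GC correction (-0.11) and under the treat test.

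**Figure D2:**
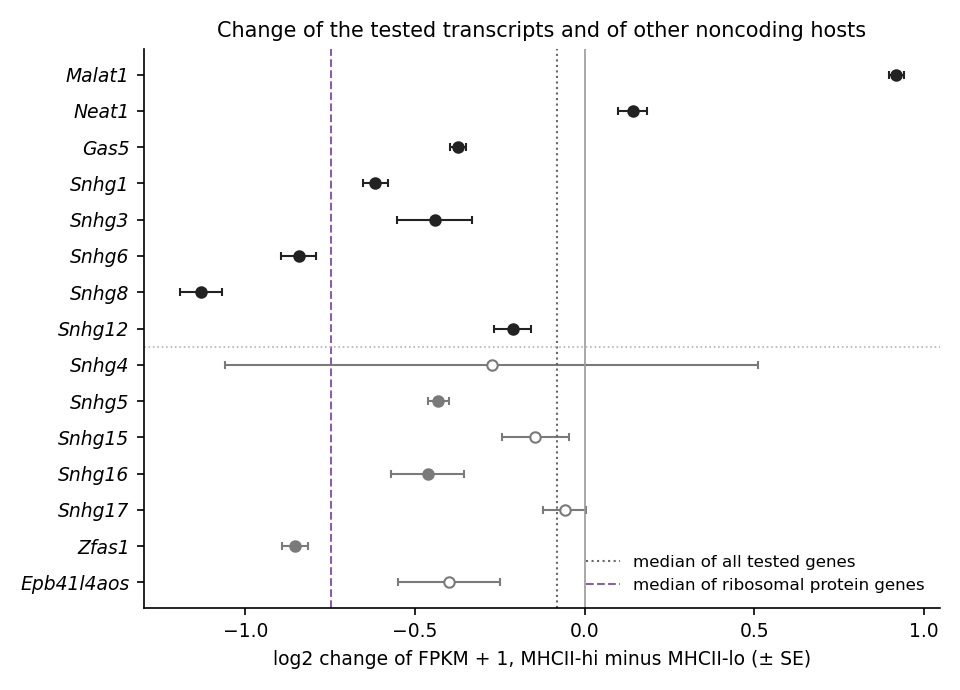
Change of each tested transcript (black, above the dotted row line) and of 7 other noncoding snoRNA hosts (grey), as the limma log2 change of FPKM + 1 with its SE, filled where the adjusted p is under 0.05. Malat1 and Neat1 lie right of 0 and the 6 hosts left of it, with Snhg8 (-1.13) and Snhg6 (-0.84) left of the ribosomal protein median (-0.75, dashed) and Snhg12 (-0.21) nearest to the median of all tested genes (-0.08, dotted).

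The order of levels changed between the fractions. In MHCII-lo it ran Gas5, Snhg1, Malat1, Snhg8, Snhg12, Snhg3, Snhg6, Neat1 and Kcnq1ot1, and only the neighbours Snhg3 and Snhg6 had overlapping libraries. In MHCII-hi it ran Gas5, Malat1, Snhg1, Snhg12, Snhg8, Neat1, Snhg3, Snhg6 and Kcnq1ot1, where Snhg12 overlapped Snhg8 and Neat1 overlapped Snhg3. FPKM is a value per length, but Malat1 and Neat1 have annotated forms of very different length, which makes their place in this order less certain.

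The 6 hosts together summed to 176 ± 2.15 FPKM in MHCII-lo, against 120 ± 2.62 in MHCII-hi (SD), and the 3 nuclear RNAs to 35.0 ± 0.71 and 62.8 ± 0.44 FPKM (SD). The hosts thus stood at 5.01 ± 0.04 times the nuclear RNAs in MHCII-lo and at 1.91 ± 0.03 times in MHCII-hi (SD). A ratio within a library does not change where each library is scaled by a single factor. It can change under quantile scaling or the length and GC correction, which move genes by different amounts. Ratios of gene pairs, chosen after their values were seen, are given as a description with no test. Gas5 went from 2.69 ± 0.01 to 1.08 ± 0.02 times Malat1, and Snhg12 from 0.519 ± 0.04 to 1.02 ± 0.08 times Snhg8 (SD).

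The summed hosts stood at 0.683 times their MHCII-lo level in MHCII-hi, and the summed ribosomal protein transcripts at 0.637 times. Of 81 tested cytosolic ribosomal protein genes 75 fell and 3 rose, with a median log2 change of -0.75, while the median of the 6 hosts was -0.53. Among all tested genes 40.5% were lower and 27.2% higher. The ribosomal protein sum ran from 25550 to 25910 FPKM in MHCII-lo, against 16340 to 16450 in MHCII-hi. For each 1000 FPKM of ribosomal protein transcripts, a separate set of genes, the hosts summed to 6.82 ± 0.10 FPKM in MHCII-lo, against 7.30 ± 0.16 in MHCII-hi (SD). Rpl17, which is also a snoRNA host, had the largest fall of these genes, from 191 ± 32.4 to 51.2 ± 3.14 FPKM (SD, log2 change -1.87, limma adjusted p = 1.193e-05).

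The snoRNAs themselves were at or near 0 in these libraries. GENCODE lists 27 snoRNA entries within the 6 hosts, with 25 distinct symbols, of which 24 have a row in the tables. In 23 of the 24 no library exceeded 1 FPKM. The exception, Snord87 of Snhg6, reached 2.72 FPKM. Mature snoRNAs have no poly(A) tail and are shorter than most library fragments, so levels of a host say nothing here of the level of its snoRNAs. Snora24 of Snhg8, Snord87 of Snhg6 and Snord78 of Gas5 are shown as examples of what these hosts release from their introns. Their positions are chr3:123507937-123508066 (minus strand), chr1:9942463-9942549 (minus) and chr1:161036984-161037049 (plus), from the GENCODE M21 transcripts, with DNA letters. Capitals mark the ACA of the H/ACA class near the 3′ end, and in the C/D class the first TGATG, the core of the C box, and the last CTGA, the D box.
Snora24: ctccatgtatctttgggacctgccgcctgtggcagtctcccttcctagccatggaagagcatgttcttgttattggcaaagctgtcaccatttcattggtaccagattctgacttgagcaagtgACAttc
Snord87: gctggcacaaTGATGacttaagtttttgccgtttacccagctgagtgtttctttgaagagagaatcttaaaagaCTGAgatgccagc
Snord78: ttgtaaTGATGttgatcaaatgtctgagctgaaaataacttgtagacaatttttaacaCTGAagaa

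Another 15 noncoding hosts had a row and 7 could be tested, of which 3 fell and 4 did not pass, with a median log2 change of -0.40. A count of 3 in 7 is near the 40.5% of all tested genes that were lower, so it is no result about these hosts. The 3 were Zfas1 (19.96 ± 0.08 to 10.6 ± 0.52 FPKM), Snhg5 (12.01 ± 0.18 to 8.65 ± 0.18 FPKM) and Snhg16 (3.68 ± 0.37 to 2.41 ± 0.44 FPKM, all SD). Snhg4 varied most between libraries of 1 fraction, from 0.03 to 5.5 FPKM in MHCII-hi, and its symbol occurs in more than 1 row. Of 34 protein-coding snoRNA hosts 32 fell, with a median of -0.60, but 18 of the 34 are ribosomal protein genes. Of the 16 that are not, 14 fell, with a median of -0.32. Prrc2a rose (log2 change 0.49) and Taf1d did not pass the test (-0.05, limma adjusted p = 0.311), both named after their values were seen.

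Transcripts of proteins that build snoRNPs, the particles formed on snoRNAs, were mostly lower: 16 of 19 fell, 1 rose and 2 did not pass, with a median log2 change of -0.41. For this and the next list, the shares over all tested genes were 40.5% lower and 27.2% higher. Nop10 and Nhp2, core subunits of the H/ACA particle, went from 51.1 ± 1.54 to 28.4 ± 0.20 FPKM and from 49.1 ± 1.89 to 31.4 ± 1.75 FPKM (SD). Ruvbl1, an ATPase of the assembly machinery, went from 33.0 ± 1.05 to 21.4 ± 1.65 FPKM (SD). Tcof1, the nucleolar factor treacle, was the gene that rose (0.24), named after its value was seen. Of 30 genes of RNA polymerase I and rRNA processing 22 fell and 8 did not pass, with a median of -0.30. Polr1c and Polr1d, subunits shared by RNA polymerases I and III, fell from 14.0 ± 1.13 to 6.71 ± 0.11 FPKM and from 22.5 ± 0.57 to 13.01 ± 0.65 FPKM (SD).

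The list of TOP regulators, made of mTORC1, its partners and the Myc network, had 18 tested genes. Of these 8 rose, 5 fell and 5 were not called, with a median of 0.10, against 27.2% higher and 40.5% lower over all tested genes. Myc, which drives ribosome genes, rose from 24.9 ± 0.95 to 35.8 ± 1.25 FPKM, and Mxd1, which opposes Myc at shared sites, rose from 20.4 ± 0.74 to 52.0 ± 0.70 FPKM (SD). Larp1, which binds TOP mRNAs, fell from 32.3 ± 0.06 to 29.0 ± 0.88 FPKM (SD, log2 change -0.15, limma adjusted p = 0.00251). Myc and Larp1 were named after their values were seen.

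Among nonsense-mediated decay and exon junction genes 6 of 21 were higher and 8 were lower, near the 27.2% and 40.5% of all tested genes, and 7 were not called, with a median of 0.06 that became -0.01 once the length and GC trend was removed. The 3 with the largest change were core proteins of the exon junction complex, which marks spliced junctions: Magoh (75.9 ± 1.57 to 42.0 ± 3.34 FPKM), its paralog Magohb (9.66 ± 0.06 to 4.94 ± 0.88 FPKM) and Rbm8a (22.3 ± 0.49 to 14.5 ± 1.08 FPKM, all SD). Magoh and Magohb encode near-identical proteins, and reads of like stretches could be split between them. Upf1, the helicase at the centre of the decay pathway, rose slightly (log2 change 0.12, limma adjusted p = 0.0176) and was named after its value was seen.

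**Figure D3:**
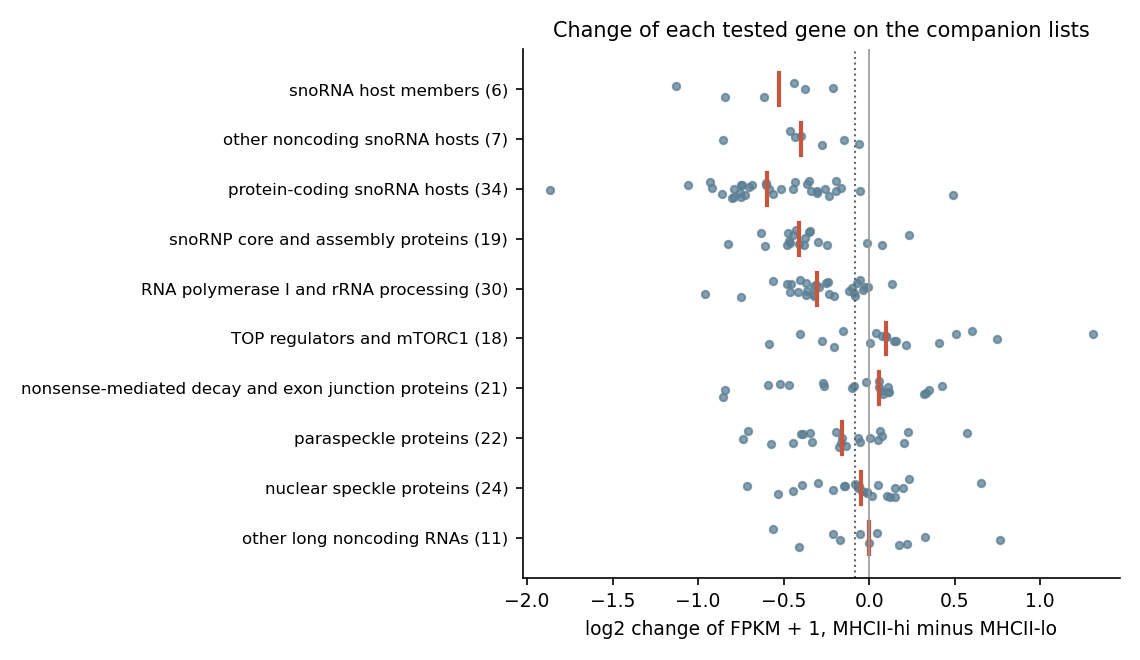
Change of every tested gene (points) on each list, with the number tested in brackets, the list median in red and the median of all tested genes as a dotted line (-0.08). The hosts, snoRNP and rRNA lists lie mostly left of 0 with medians from -0.60 to -0.30, while the lists of TOP regulators, decay, speckle proteins and other long noncoding RNAs spread to both sides.

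Proteins known to gather with the nuclear RNAs were counted in the same way. Of 22 paraspeckle proteins 3 rose, 13 fell and 6 did not pass, against 27.2% higher and 40.5% lower over all tested genes. Their median log2 change was -0.16, and became -0.02 with the length and GC trend removed. Nudt21 and Tardbp, RNA-binding proteins of 3′ end processing and of RNA metabolism, fell from 20.95 ± 0.59 to 12.2 ± 0.37 FPKM and from 44.4 ± 0.33 to 26.8 ± 0.68 FPKM, and Smarca4, the remodelling ATPase Brg1, rose from 28.8 ± 0.46 to 43.4 ± 0.30 FPKM (SD). Of 24 nuclear speckle proteins 7 rose and 9 fell, again near the 27.2% and 40.5% of all tested genes, and 8 did not pass, with a median of -0.05 that became 0.06 with the length and GC trend removed. Srrm2, a scaffold of the speckle, rose from 33.8 ± 0.72 to 53.8 ± 0.77 FPKM, whereas the splicing factors Srsf1 and Srsf3 fell from 88.2 ± 0.79 to 53.5 ± 0.77 FPKM and from 80.4 ± 0.20 to 55.3 ± 0.24 FPKM (SD).

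Of other long noncoding RNAs 32 had a row and 11 could be tested, of which 4 rose and 4 fell, near the shares of all tested genes, with a median of -0.00. Peg13, an imprinted RNA, rose from 4.01 ± 0.26 to 7.51 ± 0.13 FPKM (SD, limma adjusted p = 1.521e-05). Mir17hg, the host of a cluster of microRNAs, fell from 4.41 ± 0.46 to 3.07 ± 0.28 FPKM (SD), and 2900097C17Rik fell from 33.2 ± 0.78 to 22.1 ± 0.68 FPKM (SD). Tug1 (log2 change 0.18), Ftx (0.32) and Mir22hg (0.22) were the other 3 that rose, and were named after their values were seen.

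Genes beside the 9 did not move uniformly with them. Frmd8, 4224 bases from Neat1, fell from 14.1 ± 0.71 to 12.2 ± 0.26 FPKM (SD). Slc3a2, an amino acid transporter subunit whose gene lies 106 bases from Snhg1 on the other strand, rose slightly while Snhg1 fell (35.4 ± 0.65 to 38.7 ± 1.2 FPKM, SD, limma adjusted p = 0.00851). On the other side of Snhg1, Wdr74 fell from 14.2 ± 0.93 to 8.69 ± 0.75 FPKM (SD). Sgk3, beside Snhg6, fell from 8.83 ± 0.20 to 5.95 ± 0.49 FPKM (SD).

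Between Snhg12 and Snhg3 lies Trnau1ap, which fell from 6.93 ± 0.47 to 4.73 ± 0.20 FPKM, while Phactr4 on the far side of Snhg3 rose from 8.94 ± 0.30 to 10.9 ± 0.24 FPKM (SD). Zbtb37 overlaps Gas5 on the other strand and averaged 0.633 and 0.917 FPKM, under the filter. Gm17300 overlaps Snhg3 on the other strand and fell with overlapping groups (3.76 ± 0.94 to 2.35 ± 0.61 FPKM, SD, limma adjusted p = 0.0461). Mcmdc2 overlaps Snhg6, and Kcnq1 overlaps Kcnq1ot1, both on the other strand and both at or under 0.22 FPKM in every library. The kit keeps strand, but the sources used here do not say whether the counting used it.

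Across the 6 libraries and 4800 genes averaging 10 FPKM or more, the levels most like Malat1 by Pearson's r of log2(FPKM + 1) were those of Igkv3-5, an immunoglobulin kappa segment (2.21 ± 0.27 to 192 ± 6.79 FPKM), and of the neutrophil genes Cd177 (96.9 ± 1.48 to 180 ± 0.43 FPKM) and Retnlg (757 ± 10.2 to 1520 ± 13.01 FPKM, all SD). Most like Gas5 were Anxa5 (99.9 ± 2.04 to 62.8 ± 2.02 FPKM), the chaperonin subunit Cct2 (138 ± 1.76 to 99.9 ± 2.44 FPKM) and Rab18 (13.7 ± 0.46 to 9.48 ± 0.26 FPKM, all SD). The r values describe the step between 2 clusters of libraries and carry no test.

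**Figure D4:**
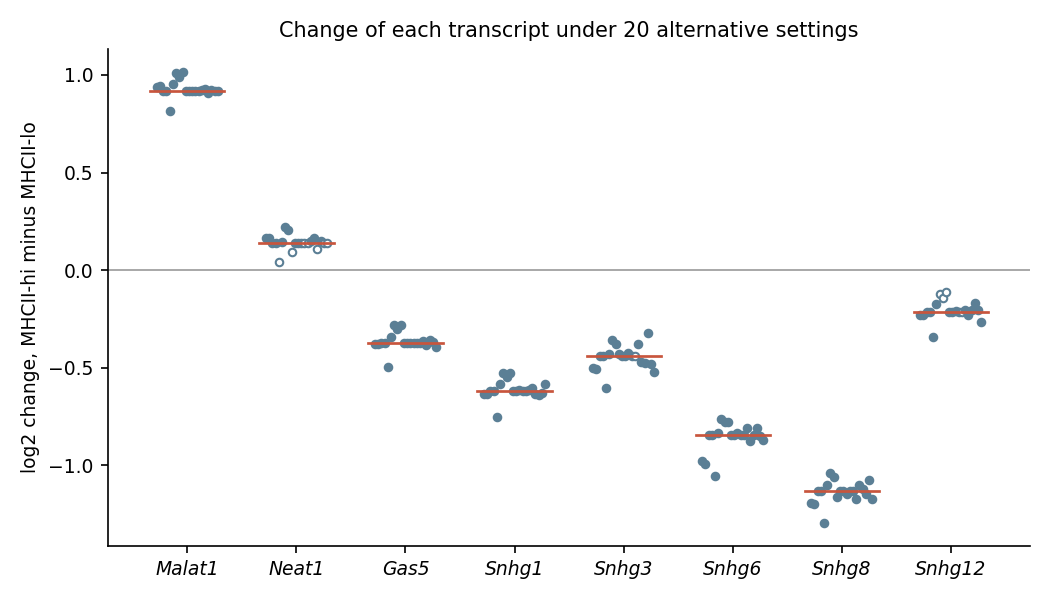
Log2 change of each tested transcript under each of 20 alternative settings (points, filled where the adjusted p is under 0.05) with the reported value as a red line. No point crosses 0, and open points occur for Neat1 (7), Snhg12 (4) and Snhg3 (1).

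No direction of the 8 tested transcripts turned under any of the 20 alternatives, and 148 of the 160 values stayed on their side of the threshold. Under TPM scaling, which lowered every one of them relative to the deposited values, Malat1 changed by 0.81 and Snhg8 by -1.29. The correction for length and GC content left the median of the 6 hosts at -0.48.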

How the data were processed

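The labels' protocols name micro-scale RNA extraction from sorted cells and a stranded mRNA library kit. Per the submitters' processing notes, fastp, HISAT2 and StringTie were used with GRCm38 (mm10); the sources used here give no versions, annotation, strand setting or treatment of shared reads. The deposited values carry no unit in the file headers and were read as StringTie FPKM: they have 2 decimals and sums that are near but not equal. Depth is unknown, so no counting interval was computed.

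Libraries were grouped by title. Values were analysed as log2(FPKM + 1), which understates changes of low genes, for genes that averaged 1 FPKM or more, in limma 3.58.1 (R 4.3.3) with a mean-variance trend and no block, two-sided, with Benjamini-Hochberg adjustment over all 12295 genes and a threshold of 0.05. The fit was tested on simulated data. Folds are ratios of mean FPKM. For 67 symbols that occur more than once, the row with the highest mean stands for the symbol. Their 70 further rows stayed in the fit as separate genes, and 12285 genes were tested when rows of 1 symbol were summed. GENCODE M21 (GRCm38) matched 96.6% of symbols to 1 gene. RefSeq promoters lacked Neat1 and Snhg6. The 9 transcripts and all gene lists were chosen with earlier results of these data known, so they are not independent support. Named genes were all 9, up to 3 per list with the largest change past the threshold and no overlap, nearest protein-coding neighbours and overlapping genes (some not reported here), and the 3 genes most like Malat1 and Gas5. Of 10 T and NK cell markers, 6 were higher and 3 lower, and of 12 long-term HSC markers 7 were tested, of which 4 were higher. The shares over all tested genes were 27.2% higher and 40.5% lower. Alternatives changed the pseudocount (0.1, 0.01), filter (none, 5 FPKM), scaling, length and GC trend, handling of repeated symbols, trend, weights, block and test, and left out each library. The main fit did not treat same-numbered libraries as pairs.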

Additional observations from a re-analysis of the deposited data

How the results depend on the processing

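Over 20 alternatives none of the 8 tested transcripts reversed, and Malat1, Gas5, Snhg1, Snhg6 and Snhg8 kept their call in all of them. Neat1 lost its call with TPM scaling (0.042), the length and GC trend removed (0.095), the replicate block (0.14, limma adjusted p = 0.0507) and the treat test (0.14), and leaving out each library gave 0.11 to 0.17. Snhg12 lost it with median-of-ratios scaling (-0.12), without immunoglobulin and mitochondrial genes (-0.14), without the length and GC trend (-0.11) and under treat (-0.21), where Snhg3 (-0.44) was lost too. So 1 transcript was called higher under TPM, the length and GC correction, the block and treat, and 1 to 2 with each library left out. Over all genes, 2210 were higher with a mean of at least 5 FPKM, a filter that left 7491 genes to test. Under treat, which asks for a change beyond 1.2-fold, 1594 of 12295 were higher and 2128 lower. The summed nuclear RNAs changed by 0.87, 0.72, 0.94 and 0.92 and the summed hosts by -0.52, -0.67, -0.46 and -0.48 (log2) under quantile, TPM, median-of-ratios and immunoglobulin-free scaling. The Kcnq1ot1 difference was -0.0083 under TPM. Removal of the length and GC trend was not run for the sums. Kcnq1ot1 entered the fit only in the setting without a filter, where its difference was -2.6e-17, and has no value in the other settings that need the fit. The cause of the shifts in the transcripts and their sums was not tested.

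The replicate numbers were checked as a pairing. Deviations of same-numbered libraries correlated at 0.0626, 0.0019 and 0.0804, and those of differently numbered libraries at -0.0949 to 0.0251. MHCII-lo replicate 2 correlated best with MHCII-hi replicate 1 (0.0251). These correlations were weak and carry no test, so they do not settle whether same-numbered libraries belong together. With the replicate block 3222 genes were higher and 4809 lower, and Neat1 was the only one of the 8 whose call changed. Unknown depth limits all values near 0, Kcnq1ot1 above all.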
